A study of Mus musculus with 4 samples.

Results

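The 28 genes described here make cholesterol, sense its level, move it inside the cell, export it or store it. They were chosen by symbol from a fixed list, and all 28 were found among the 31053 genes of the count tables. By role they comprise 8 enzymes from acetyl-CoA to squalene (Acat2, Hmgcs1, Mvk, Pmvk, Mvd, Idi1, Fdps and Fdft1) and 10 enzymes from squalene to cholesterol (Sqle, Lss, Cyp51, Tm7sf2, Msmo1, Nsdhl, Hsd17b7, Ebp, Sc5d and Dhcr7). They further comprise 4 genes of sterol sensing (Insig1, Srebf1, Srebf2 and Scap) and 6 genes of intracellular transport, efflux and storage (Stard4, Npc1, Npc2, Abca1, Abcg1 and Soat1). No lipoprotein receptor is among them, so that on the uptake side they hold the steps after endocytosis. Receptors and other genes of the pathway were taken from a second list of 50 genes and are given as context.

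The study profiled single cells of the mouse aorta-gonad-mesonephros (AGM) region, the site of the embryo where blood stem cells arise from the aortic wall, at embryonic day 10.5. Cells positive for CD31, found on endothelium, and negative for CD45, found on mature blood cells, were sorted from wild-type (WT) embryos and from miR-223-/- (KO) embryos at the same age, and 2 libraries were made for each genotype with the droplet-based 10x Genomics 3' kit. All groups share the sort, the region and the age, and the only allele named is the loss of miR-223, a microRNA abundant in myeloid blood cells. Strain, number of embryos per library and whether the libraries of a genotype came from separate embryos are not stated. Each p-value for KO against WT within a class rests on the spread among the 4 libraries, and between the WT libraries that spread may be technical. P-values between classes rest on the spread left after library and class are fitted, estimated over all classes of a fit together. Differences that all classes of a library share do not enter them. The KO libraries did not hold the same mix of embryos: the female-specific transcript Xist was counted 3 times in replicate 1 and 30120 times in replicate 2.

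Cells make cholesterol from acetyl-CoA through mevalonate and squalene, in a pathway whose enzymes are switched on together when sterols are scarce. The sensor Scap then escorts the transcription factor Srebf2, or its relative Srebf1, out of the endoplasmic reticulum, while Insig1 holds the complex back when sterols are plentiful. Cholesterol from lipoproteins leaves the lysosome through Npc2 and Npc1, Soat1 esterifies it for storage, and Abca1 and Abcg1 export it to lipoproteins. miR-223 has been described to act on this pathway through Hmgcs1, Msmo1 and the lipoprotein receptor Scarb1, and through the transcription factor Sp3 on Abca1.

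The mature microRNA is shown because its gene was deleted, together with its matches in the 3' UTRs of members. Capitals mark the seed, bases 2 to 8 of the microRNA, and the letters pairing with it in each site (AACTGAC, with a following A where present), and every sequence runs 5′ to 3′. Mature miR-223-3p (RefSeq, GRCm38.p6) lies at chrX:96242884-96242905 on the plus strand, and the sites come from GENCODE M21 (GRCm38), whose build may not be that of the deposited counts.
mmu-miR-223-3p: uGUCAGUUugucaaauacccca
Hmgcs1, chr13:119706579-119706608, plus strand: aaatgtaatgtAACTGACAcagagcccaga
Acat2, chr17:12943054-12943083, minus strand: actggaactggAACTGACAgtcaaataaac
Insig1, chr5:28078033-28078061, plus strand: aagttatatgaAACTGACctcctgacaca
A match was present in the annotated 3' UTR of 4 of the 28 members (14.29%; the fourth is Npc1), against 1834 of 20960 genes with a 3' UTR (8.75%). No match was found in the annotated 3' UTR of Msmo1 or Abca1. Of the described targets that are not members, Sp3 held a match and none was found for Scarb1. These matches are letters in a reference, and binding was not measured.

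The promoter of Hmgcs1, the cytosolic HMG-CoA synthase, is shown because it alone among the 28 member windows held the core searched for the sterol regulatory element, TCACNCCAC on either strand. It begins 137 bases before the start of the gene and is in capitals in the stretch chr13:119690169-119690267 (plus strand; RefSeq, GRCm38.p6).
Hmgcs1 promoter: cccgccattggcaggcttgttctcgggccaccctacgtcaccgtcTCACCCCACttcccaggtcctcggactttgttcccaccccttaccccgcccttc
The windows ran from 250 bases before to 50 bases after each start, and 22 members had at least 1 window in the table. The core occurred in 1 of 28 member windows (3.571%) and in 408 of 32851 windows of all genes (1.242%). The CCAAT box, searched as CCAAT on either strand, occurred in 20 of 28 member windows (71.43%) and in 12289 of the 32851 (37.41%). The core and the CCAAT matches of Hmgcs1 did not overlap.

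Unique molecular identifiers (UMIs), tags that each mark 1 captured RNA molecule, were counted, with 95158639 to 181682389 per library. After filtering, 19178 cells remained, with 2294 to 6883 per library and median depths of 18135 to 30169 UMIs per cell. Cells were clustered without any gene of the pathway, and clusters were named from other markers, so that "endothelial-like" and similar names rest on markers alone. Endothelial-like cells made up 71.2% to 86.0% of each library and carried 9 endothelial markers at a summed 4159 to 4741 CPM, a gene's UMIs scaled so that all genes of a class and library add up to the same total. Mature miR-223 was not measured. The transcript that hosts it, F630028O10Rik, was at 0.129 and 0.399 CPM in WT and 2.55 and 4.93 CPM in KO; whether its 3' tag lies in the deleted part is not stated, so it does not check the genotype. KO replicate 1 stood apart in holding 3 UMIs of the female-specific Xist against 20866 to 34408 in the other libraries. The male-specific Ddx3y was at 20.4 and 27.7 CPM in WT and 32.1 and 23.2 CPM in KO over all kept cells. Sex make-up was therefore unlike between libraries, and the members Nsdhl and Ebp lie on the X chromosome. Any 2 libraries shared 3 to 9 cell barcodes.

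Synthesis enzymes were present in every class, at levels that differed between classes. The summed level of the 18 enzymes in endothelial-like cells was 1091 and 987 CPM in the WT and 1187 and 1009 CPM in the KO libraries (1069 ± 90.8 CPM, SD, n = 4). In neural-like cells the sum was 1512 ± 168 CPM, and its lowest library, 1343 CPM, lay above the highest endothelial-like library. In erythroid-like cells it was 307 ± 67.5 CPM, and the highest library, 397 CPM, lay below every endothelial-like library. Hemogenic-like cells, named from Runx1, Gfi1 and other genes of emerging blood, had 775 ± 92.0 CPM and primordial germ cell-like cells 825 ± 83.0 CPM, both below all endothelial-like libraries. The leading genes of the hemogenic-like class included the blood genes Spi1, Myb, Mpo and Lyz2. How it divides between blood-forming endothelium and early blood cells was not tested. Mesenchymal-like (1290 ± 179 CPM) and megakaryocyte-like cells (850 ± 155 CPM) overlapped with endothelial-like cells in their range. CPM is a share of a class's RNA, so that a sum falls where other transcripts take up more of it.

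**Figure D1:**
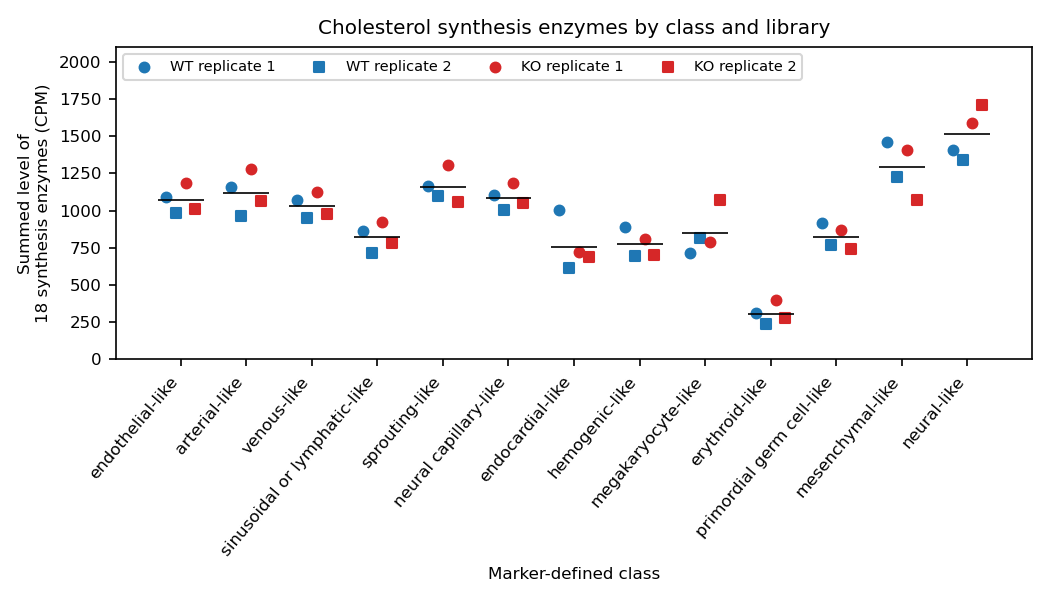
Summed level of the 18 synthesis enzymes in CPM (vertical axis, from 0) by marker-defined class (horizontal axis); each point is 1 library (blue WT, red KO, circles replicate 1, squares replicate 2) and each bar the mean of the 4. Neural-like cells sit highest (mean 1512 CPM) and erythroid-like cells lowest (307 CPM), and in most classes circles lie above squares of the same colour.

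Each broad class was compared with endothelial-like cells in a fit over all 4 libraries with library as a block (edgeR's quasi-likelihood test). A gene was called at a Benjamini-Hochberg adjusted p under 0.05 over the 12171 genes tested and a log2 difference of at least 1. All 28 members passed the filter on low counts. The fit used edgeR's TMM scaling, which in erythroid-like cells differed in direction from CPM for some members. Ebp was at 26.77 CPM there and 58.55 CPM in endothelial-like cells, yet its log2 difference in the fit was 0.15. Fdps (0.22), Lss (0.29), Srebf1 (0.16) and Srebf2 (0.53) were positive there too, with their lowest mean CPM of any broad class. On adjusted p alone, 1 member was higher and 18 lower there. Over the 6 comparisons members were called higher 5 times and lower 42 times. The counts were 14 lower in erythroid-like cells (28.4% of all genes were called lower), 7 lower and 1 higher in hemogenic-like cells (11.5% and 7.67% of all genes), and 6 lower in megakaryocyte-like cells (19.0%). Further, 4 were lower in mesenchymal-like cells (13.3%), 4 lower and 3 higher in neural-like cells (19.8% and 15.3%), and 7 lower and 1 higher in primordial germ cell-like cells (26.9% and 18.5%). The share of members called in both directions together was above that of all genes in erythroid-like (39.1%) and hemogenic-like cells (19.2%) and below it in megakaryocyte-like (30.6%), mesenchymal-like (27.3%), neural-like (35.1%) and primordial germ cell-like cells (45.4%). The median log2 difference of the members was -1.04 in erythroid-like cells (-0.50 over all genes), -0.71 in hemogenic-like cells (-0.09), -0.53 in megakaryocyte-like cells (-0.10) and -0.41 in primordial germ cell-like cells (-0.08). It was 0.01 in mesenchymal-like cells (-0.03) and 0.05 in neural-like cells (-0.24).

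**Figure D2:**
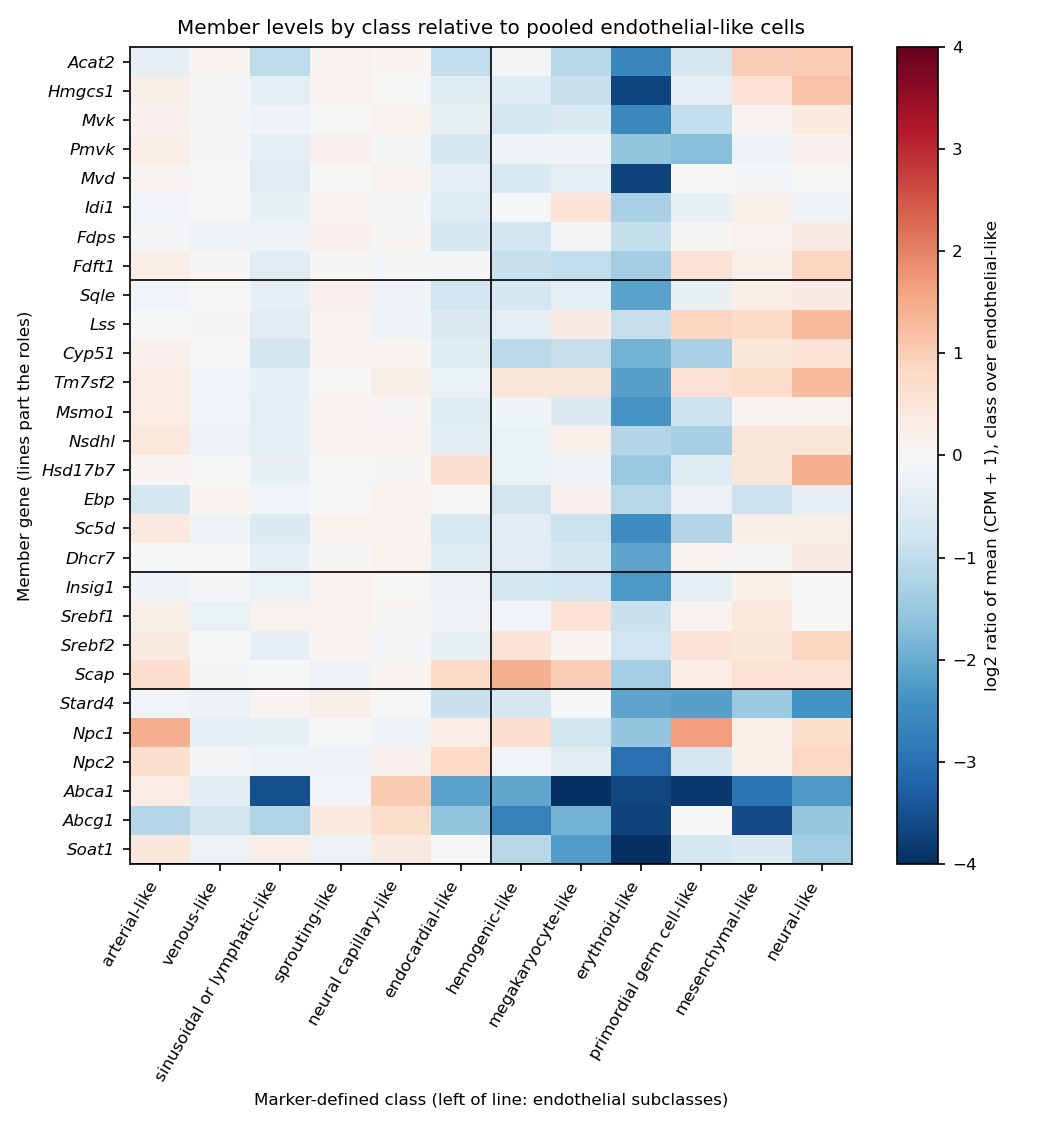
Colour gives the log2 ratio of the mean CPM + 1 over 4 libraries in each class (columns; endothelial subclasses left of the vertical line) to pooled endothelial-like cells, for the 28 members (rows, parted by role). On this CPM scale the synthesis enzymes are pale in most columns and blue in erythroid-like cells. With TMM scaling, the fit gave positive differences for Fdps, Ebp and Lss there. Abca1 is blue in every column outside the endothelium.

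Among the enzymes from acetyl-CoA to squalene, Hmgcs1 had 124.6 and 118.7 CPM in WT and 140.3 and 120.9 CPM in KO endothelial-like cells. It was higher in every neural-like library (252.7 and 239.1 CPM in WT, 301.7 and 330.3 CPM in KO), without reaching a log2 difference of 1. Values are listed from replicate 1 to 2, WT before KO, where 4 are given. In erythroid-like cells Hmgcs1 stood at 5.99 to 10.9 CPM in the 4 libraries and was called lower (log2 -2.64). Mvd, the mevalonate diphosphate decarboxylase, was at 1.18, 0, 2.24 and 1.996 CPM in erythroid-like cells, from 0 to 5 UMIs per library, against 24.4 to 35.6 CPM in endothelial-like cells. Its log2 difference there was -3.12 ± 0.38 (SE; adjusted p = 7.85e-09). Pmvk, the phosphomevalonate kinase, was lower in primordial germ cell-like cells, with 20.8, 16.3, 17.0 and 13.8 CPM against 55.1 to 59.4 CPM in endothelial-like libraries (log2 -1.83 ± 0.10, adjusted p = 1.08e-18). Acat2, the cytosolic acetyl-CoA acetyltransferase, was lower in megakaryocyte-like cells, at 25.8 to 42.5 CPM against 58.7 to 88.0 CPM (log2 -1.20 ± 0.12, adjusted p = 7.8e-11). Acat2 was also called lower in erythroid-like cells (log2 -1.41). It has a close relative, Acat3, and how reads shared between them were counted is not stated. Hmgcs1 was also called lower in megakaryocyte-like cells (log2 -1.03) and Mvd in hemogenic-like cells (-1.04). Fdft1 was called lower in hemogenic-like (-1.10) and megakaryocyte-like cells (-1.08), and Mvk in erythroid-like (-1.42) and primordial germ cell-like cells (-1.07).

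Among the enzymes from squalene to cholesterol, 3 were called higher in neural-like cells. Hsd17b7, a sterol-ring reductase, was at 35.3, 21.0, 28.1 and 26.9 CPM there, above all endothelial-like libraries at 7.80 to 11.004 CPM (log2 1.14 ± 0.25, adjusted p = 0.000183). Lss, which closes the sterol rings, rested on 1 UMI in WT replicate 1 and on 10 to 19 in the other neural-like libraries (log2 1.15 ± 0.29, adjusted p = 0.000886), and fell to 0.94 without WT replicate 2. Tm7sf2, a sterol reductase, was at 29.8 CPM in KO replicate 2 and at 4.53 to 10.5 CPM in the other neural-like libraries, and its log2 difference of 1.10 ± 0.36 (adjusted p = 0.00826) fell to 0.12 without KO replicate 2. The scaling mattered in this class: with DESeq2's size factors the median over all genes moved from -0.24 to 0.06 and 5 members, not 3, were called higher. None of the 3 passed the fold limit when genes with low counts were kept in the fit.

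Ebp, the sterol isomerase, was at 27.9 to 32.9 CPM in mesenchymal-like cells and at 56.5 to 60.9 CPM in endothelial-like cells. Its log2 difference of -1.09 ± 0.08 (adjusted p = 1.4e-14) was just past the limit of 1 and was -0.99 with DESeq2's size factors and -0.98 with doublets kept. Nsdhl, a sterol dehydrogenase, was lower in primordial germ cell-like cells, at 6.89 to 10.6 CPM against 21.8 to 26.3 CPM (log2 -1.45 ± 0.14, adjusted p = 7.23e-12). Cyp51, the sterol demethylase, was lower in hemogenic-like cells, at 21.9, 44.9, 40.1 and 36.7 CPM against 68.5 to 81.3 CPM (log2 -1.15 ± 0.14, adjusted p = 9.79e-09). Cyp51 was also called lower in primordial germ cell-like cells (log2 -1.40 ± 0.12). Hemogenic-like cells numbered 10 in WT replicate 1 and 74 to 129 in the other libraries. Msmo1, the methylsterol oxidase described as a miR-223 target, was called lower in erythroid-like cells (log2 -1.15) and in no other broad class. Sc5d (log2 -1.55), Dhcr7 (-1.42) and Tm7sf2 (-2.30 ± 0.89) were called lower in erythroid-like cells too, and Sc5d also in primordial germ cell-like cells (-1.32). The Tm7sf2 value there rested on very few UMIs, at a mean of 0.26 ± 0.31 CPM (SD).

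Of the 4 sterol-sensing genes, Scap and Insig1 were called in a broad class. Srebf2, the main activator of the synthesis genes, was at 36.3, 32.6, 32.6 and 32.4 CPM in endothelial-like cells and at 54.4 to 68.3 CPM in neural-like cells, and was called in no broad class. Scap, its escort, was higher in hemogenic-like cells, at 28.2, 21.2, 26.3 and 18.04 CPM against 6.92 to 10.1 CPM in endothelial-like cells. No library of either class overlapped with the other (log2 1.36 ± 0.16, adjusted p = 2.69e-09). Insig1 was called lower in erythroid-like (log2 -1.36) and hemogenic-like cells (log2 -1.06). The erythroid-like difference was -0.95 with doublets kept, and the hemogenic-like one was -0.98 with DESeq2's size factors, -0.84 without KO replicate 1 and -0.93 without WT replicate 2.

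The efflux genes were lower in most classes outside the endothelium. Abca1, which exports cholesterol to lipid-poor apolipoproteins, was at 36.8 and 45.8 CPM in WT and 26.7 and 40.002 CPM in KO endothelial-like cells and was called lower in all 6 other broad classes. The log2 differences were -4.66 ± 0.17 in primordial germ cell-like cells, -4.51 ± 0.28 in megakaryocyte-like cells and -3.38 ± 0.12 in mesenchymal-like cells. They were -3.34 ± 0.35 in erythroid-like, -2.87 ± 0.26 in neural-like and -2.53 ± 0.17 in hemogenic-like cells, and the largest adjusted p of the 6 was 1.89e-10. Its mean level in primordial germ cell-like cells was 4.39% of that in endothelial-like cells, where the summed level of the 9 endothelial markers was 6.34%. In erythroid-like cells these shares were 5.54% and 4.16%, and in megakaryocyte-like cells 3.76% and 12.0%, so that in these 3 classes Abca1 was near or below the level at which endothelial RNA was read. In hemogenic-like cells Abca1 was at 21.4% and the endothelial markers at 41.5%. Abca1 lay above the marker share in mesenchymal-like (10.98% against 4.95%) and neural-like cells (18.6% against 9.78%). The part of free RNA in these low values was not tested.

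Abcg1, which exports cholesterol to high-density lipoproteins, was at 28.1 and 26.0 CPM in WT and 25.8 and 29.7 CPM in KO endothelial-like cells. It was lower in mesenchymal-like (log2 -4.72 ± 0.20), erythroid-like (-3.51 ± 0.51), hemogenic-like (-3.31 ± 0.29), neural-like (-2.38 ± 0.35) and megakaryocyte-like cells (-2.11 ± 0.27). In mesenchymal-like and erythroid-like cells its mean level, at 5.05% and 4.39% of the endothelial-like mean, was close to the marker shares of 4.95% and 4.16%. In primordial germ cell-like cells, where Abca1 was close to the marker background, Abcg1 was at 31.3, 28.8, 22.9 and 25.8 CPM, or 99.2% of the endothelial-like mean. In neural-like cells the WT libraries had 14.7 and 15.8 CPM and the KO libraries 3.62 and 1.42 CPM, from 1 to 6 UMIs per library, and the gene did not pass the filter on low counts for KO against WT there.

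Of the transport and storage genes, Stard4, a cytosolic sterol carrier, was at 64.3 to 67.7 CPM in the endothelial-like libraries. It was lower in neural-like cells (2.94 to 19.8 CPM, log2 -2.76 ± 0.26), primordial germ cell-like cells (13.1 to 14.6 CPM, log2 -2.33 ± 0.14) and mesenchymal-like cells (19.3 to 25.7 CPM, log2 -1.68 ± 0.11). Stard4 was also called lower in erythroid-like cells (log2 -1.12 ± 0.23). Soat1, the esterifying enzyme, was at 36.5, 54.7, 45.2 and 48.6 CPM in endothelial-like cells and at 0 to 5.46 CPM, from 0 to 3 UMIs per library, in erythroid-like cells (log2 -3.96 ± 0.42). It was also lower in megakaryocyte-like (log2 -2.78 ± 0.24), neural-like (-1.81 ± 0.24) and hemogenic-like cells (-1.29 ± 0.16). Npc1, the lysosomal cholesterol exporter, went the other way in primordial germ cell-like cells, with 42.8, 43.8, 43.4 and 48.7 CPM against 11.1 to 15.4 CPM in endothelial-like cells (log2 1.67 ± 0.09, adjusted p = 6.54e-19). Npc2, which hands cholesterol to Npc1 in the lysosome, was called lower in erythroid-like cells alone among the 6 comparisons (log2 -1.72).

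**Figure D3:**
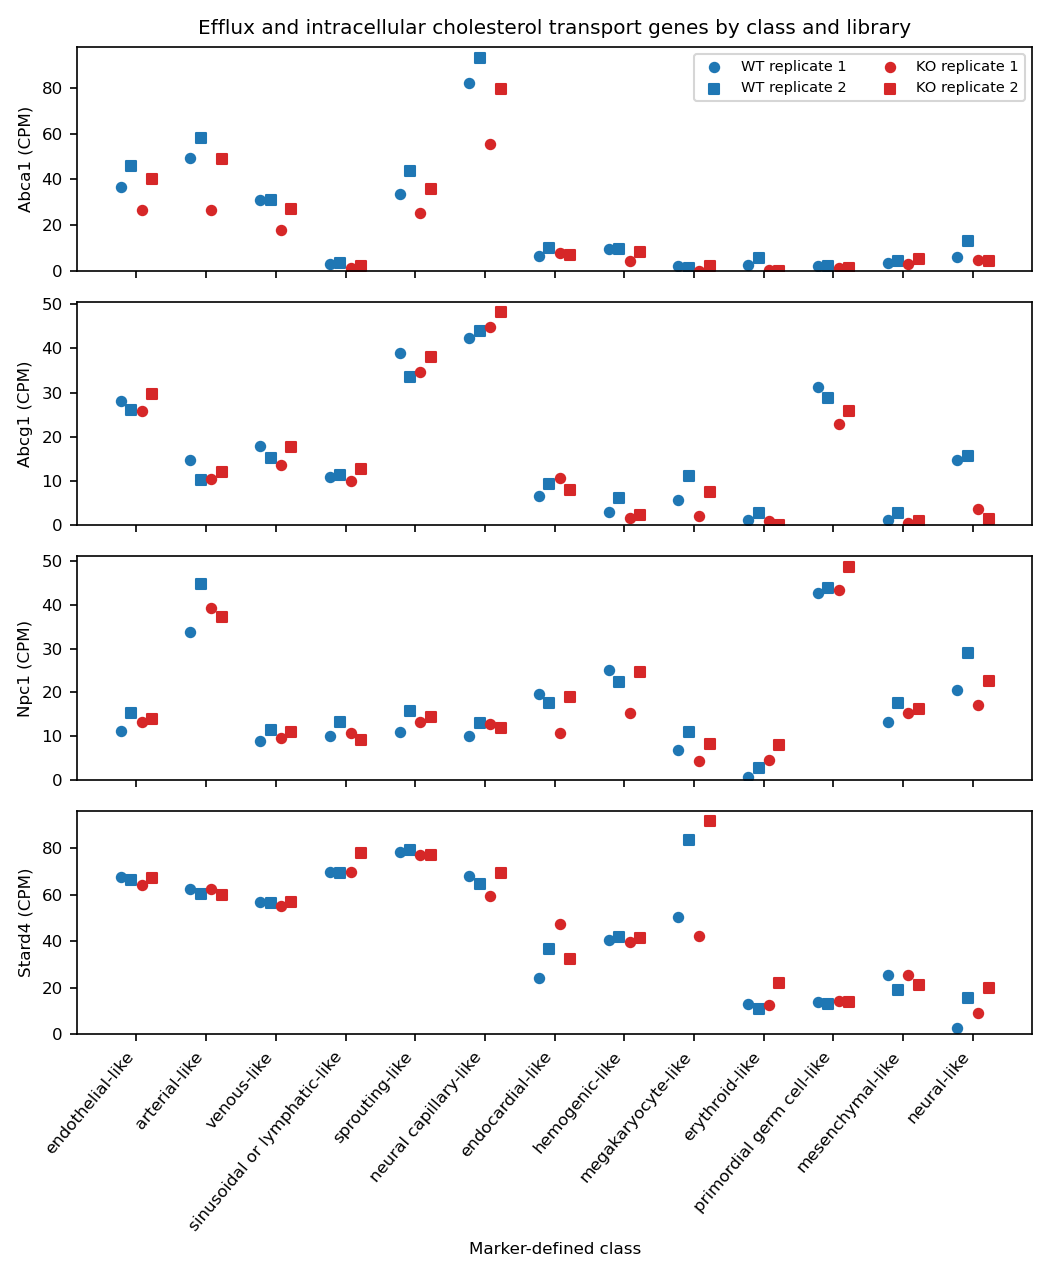
Levels of Abca1, Abcg1, Npc1 and Stard4 in CPM (vertical axes, from 0) by marker-defined class; each point is 1 library (blue WT, red KO, circles replicate 1, squares replicate 2). Abca1 peaks in neural capillary-like cells, where the KO replicate 1 library is the lowest at 55.3 CPM, and Npc1 peaks in primordial germ cell-like and arterial-like cells.

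Within the endothelium, the calls fell on the efflux genes and Npc1. Each of 6 subclasses was compared with the mean of the other 5 under the same call rule over 12577 genes, and members were called higher 6 times and lower 3 times, for Abca1, Abcg1 and Npc1 alone. Of all genes, 11.9% were called higher and 8.09% lower in arterial-like, 6.42% and 3.51% in endocardial-like (9.93% in all), 4.24% and 5.18% in neural capillary-like (9.42%) and 4.66% and 8.13% in sinusoidal or lymphatic-like cells (12.8%). The shares were 3.0% and 4.52% in sprouting-like (7.52%) and 2.5% and 3.2% in venous-like cells (5.71%). Neural capillary-like cells, named from Foxq1, Spock2, Mfsd2a and other markers of brain vessels, had Abca1 at 82.2, 93.3, 55.3 and 79.6 CPM (log2 2.38 ± 0.05, adjusted p = 3.65e-33). They had Abcg1 at 42.4, 43.8, 44.8 and 48.1 CPM (log2 1.65 ± 0.06, adjusted p = 2.01e-26), and these were the 2 members called there (4.24% of all genes were called higher). Sinusoidal or lymphatic-like cells, marked by Oit3, Stab2 and Lyve1, had Abca1 at 2.86, 3.21, 1.34 and 1.997 CPM (log2 -3.53 ± 0.16, adjusted p = 1.78e-22), the only member called there (8.13% of all genes were lower). The mean level in neural capillary-like cells was 33.0 times that in sinusoidal or lymphatic-like cells. The low sinusoidal level also lowers the mean of the others against which each remaining subclass is set.

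In arterial-like cells Abca1 (49.3, 58.1, 26.6 and 48.7 CPM; log2 1.29 ± 0.08) and Npc1 (33.7, 44.8, 39.3 and 37.2 CPM; log2 1.47 ± 0.07) were called higher (11.9% of all genes). The 4 arterial-like values of Npc1 lay above all values of the other 5 subclasses, which ran from 8.95 to 19.7 CPM. Sprouting-like cells joined clusters 0, 1 and 6, with mean log2 folds of 0.36, 0.54 and 0.33 for the sprouting markers, where the limit was 0.3. Esm1 was among the 10 leading genes of cluster 0 and Kcne3 among those of cluster 1, and neither among those of cluster 6. In sprouting-like cells Abcg1 (39.0, 33.4, 34.6 and 38.0 CPM, log2 1.28 ± 0.05) and Abca1 (33.5, 43.6, 25.4 and 35.6 CPM, log2 1.01 ± 0.06) were called higher (3.0% of all genes). The Abca1 call there was at the limit: it was 0.99 without KO replicate 1, 0.97 without KO replicate 2 and 0.89 with doublets kept. Endocardial-like cells had lower Abca1 (6.58, 9.85, 7.67 and 6.73 CPM; log2 -1.71 ± 0.20) and Abcg1 (6.58, 9.30, 10.7 and 8.08 CPM; log2 -1.26 ± 0.20), where 3.51% of all genes were lower. No member was called in venous-like cells (5.71% of all genes), in which Abca1 was at 31.2, 31.0, 17.7 and 27.2 CPM.

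No synthesis enzyme passed the limit of 1 on the log2 scale for a subclass against the mean of the other 5. Between the highest and the lowest subclass, the mean level differed 2.26-fold for Acat2, 2.05-fold for Hsd17b7 and 2.03-fold for Sc5d. Their summed level was 1157 ± 110 CPM in sprouting-like, 1117 ± 135 in arterial-like, 1087 ± 76.4 in neural capillary-like and 1032 ± 82.6 CPM in venous-like cells, whose libraries overlapped. Sinusoidal or lymphatic-like (821 ± 91.5 CPM) and endocardial-like cells (757 ± 171 CPM) had the lowest sums, with the endocardial-like value resting on 17 cells in WT replicate 1. On adjusted p alone, without the fold limit, 18 of the 28 members were lower and 2 higher in endocardial-like cells, where 28.8% of all genes passed in either direction. In sinusoidal or lymphatic-like cells 16 were lower and 2 higher (59.5% of all genes), in sprouting-like cells 21 were higher and 3 lower (48.8%) and in neural capillary-like cells 19 were higher and 1 lower (44.8%). In arterial-like cells 14 were higher and 4 lower (68.5%), and in venous-like cells 12 were higher and 5 lower (53.5%). The median log2 difference of the members was 0.26 in sprouting-like, 0.22 in neural capillary-like, 0.17 in arterial-like and 0.08 in venous-like cells, against medians over all genes of 0.02, 0.01, 0.01 and 0.02. It was -0.23 in sinusoidal or lymphatic-like and -0.59 in endocardial-like cells, against -0.01 and 0.00.

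The arterial-like class joined clusters with unlike levels of these genes, which were singled out after their values were seen and are described without a test. Cluster 10, with Gja5, Cxcr4 and Gja4 among its 10 leading genes, had a summed synthesis level of 1462 and 1176 CPM in the WT libraries and 1656 and 1356 CPM in the KO libraries. Cluster 11, with Htra1, Pde3a and Nkx2-3 among its own, had 706 and 647 CPM in WT and 1010 and 724 CPM in KO. Cluster 10 was above cluster 11 in every library for 21 of the 28 members and below in every library for Npc1 and Npc2, where 17.6% of 10661 genes were above and 31.8% below in every library. Tm7sf2, Sc5d, Srebf1, Scap and Soat1 were mixed. Abca1 was at 60.5, 80.1, 32.2 and 65.4 CPM in cluster 10 and at 32.7, 25.8, 22.6 and 29.0 CPM in cluster 11. The summed level of 10 genes of G2 and mitosis differed in the opposite direction, with 160 to 305 CPM in cluster 10 and 1040 to 1782 CPM in cluster 11, and its part in the difference was not tested.

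**Figure D4:**
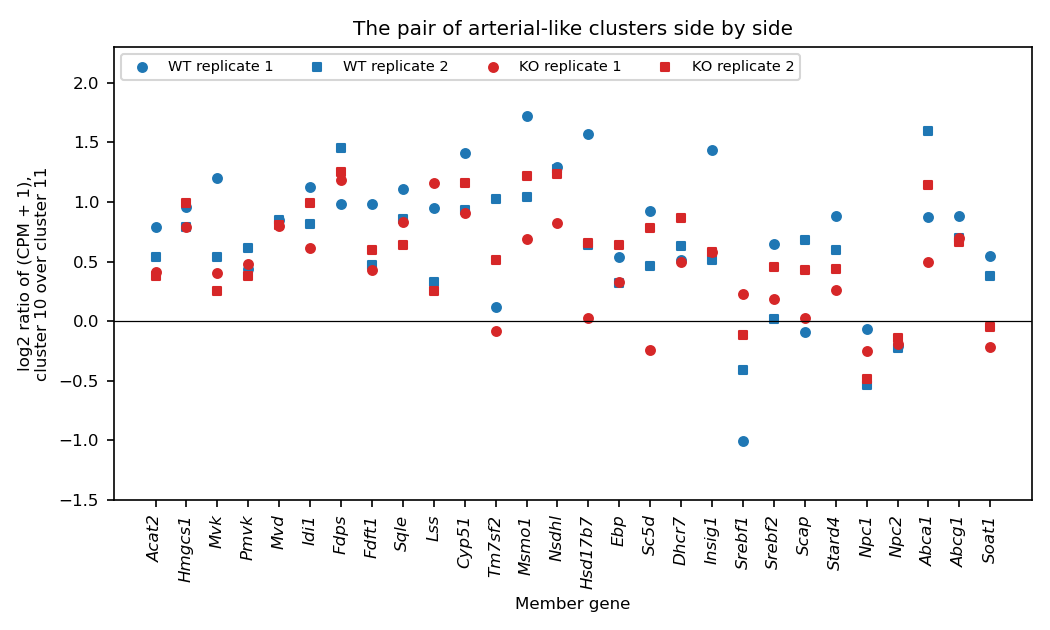
Log2 ratio of CPM + 1 in arterial-like cluster 10 over cluster 11 (vertical axis) for each member (horizontal axis); each point is 1 library (blue WT, red KO, circles replicate 1, squares replicate 2). Points lie above 0 in all 4 libraries for 21 members and below 0 in all 4 for Npc1 and Npc2.

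Whether loss of miR-223 changed these genes was tested in each of the 13 classes, with summed UMI counts per library and edgeR's quasi-likelihood test. In endothelial-like cells all 28 members were tested among 14657 genes, and none was called at an adjusted p under 0.05 (0.13% of all genes were called, 19 genes). No member had an unadjusted p under 0.05 there, against 258 of all genes, and DESeq2 also called no member. The median log2 change of the members was 0.06, against -0.0034 over all genes, with 22 members above 0 and 6 below. Of all genes, 48.8% were above 0. Without KO replicate 1 the median of the members was 0.0064 and 15 members were above 0, and without WT replicate 2 it was 0.01 with 17 above 0. Single changes ran from -0.29 to 0.23, and the limits of the 95% intervals of the 28 members ran from -0.77 to 0.62. Each interval is for 1 gene alone, so this span is no joint bound on the changes of the members.

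**Figure D5:**
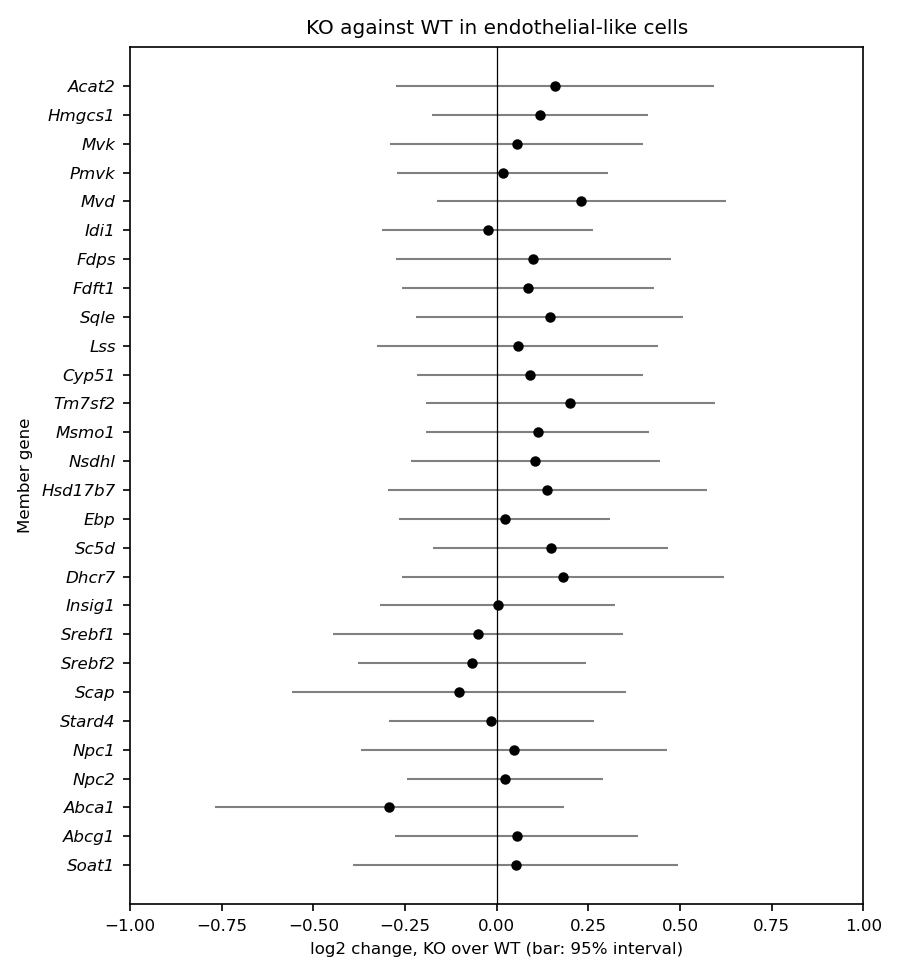
Log2 change of each member, KO over WT, in endothelial-like cells (horizontal axis), with its 95% interval from edgeR's fit of 2 WT and 2 KO libraries. Every interval spans 0, and Abca1 lies farthest to the left at -0.29.

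Among the described targets, Hmgcs1 was at 124.6 and 118.7 CPM in WT and 140.3 and 120.9 CPM in KO endothelial-like cells, and KO replicate 2 lay between the WT libraries. Its log2 change was 0.12 ± 0.13 (SE; 95% interval -0.18 to 0.41). Msmo1 was at 96.7 and 98.7 CPM in WT and 113.5 and 95.5 CPM in KO, so that the KO libraries lay on both sides of the WT pair. Its log2 change was 0.11 ± 0.13 (-0.19 to 0.42), and -0.01 without KO replicate 1. Abca1 was at 36.8 and 45.8 CPM in WT and 26.7 and 40.002 CPM in KO, with overlapping groups. Its log2 change of -0.29 ± 0.21 (-0.77 to 0.18, adjusted p = 0.999973 by edgeR) was -0.03 without KO replicate 1, the library nearly without Xist, and -0.62 without KO replicate 2. The low value in KO replicate 1 recurred in each endothelial subclass other than endocardial-like cells.

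Of the remaining members nearest to a change, Mvd was at 31.0 and 24.4 CPM in WT and 35.6 and 28.7 CPM in KO (log2 0.23 ± 0.17). Dhcr7, the last reductase of the pathway, was at 28.8 and 20.9 CPM in WT and 31.3 and 24.5 CPM in KO (log2 0.18 ± 0.19). In both genes the replicate 1 libraries were above the replicate 2 libraries in either genotype. Tm7sf2 (4.52 and 4.28 CPM in WT, 4.80 and 5.19 CPM in KO; log2 0.20 ± 0.17) and Sc5d, a sterol desaturase (31.2 and 33.5 CPM in WT, 37.4 and 33.5 CPM in KO; log2 0.15 ± 0.14), were the 2 members with both KO libraries above both WT libraries, Sc5d by less than the last digit printed. Of 14796 genes compared in this way, 7.77% had KO above WT and 12.2% had KO below WT, and no member was among the latter. Srebf2 was at 36.3 and 32.6 CPM in WT and 32.6 and 32.4 CPM in KO (log2 -0.07 ± 0.14).

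The other members with a miR-223 match showed no called change in endothelial-like cells either. Acat2 changed by 0.16 ± 0.19 on the log2 scale, from 70.1 ± 16.2 CPM in WT to 77.4 ± 15.04 CPM in KO (SD, n = 2 each). Insig1 changed by 0.00 ± 0.14, from 35.4 ± 1.7 to 35.1 ± 3.0 CPM, and Npc1 by 0.05 ± 0.18, from 13.2 ± 3.0 to 13.6 ± 0.49 CPM. Among the members not yet given, Fdps, the farnesyl diphosphate synthase, had 205.3 and 160.5 CPM in WT and 216.7 and 171.1 CPM in KO. Sqle, the squalene epoxidase, had 76.4 and 66.4 CPM in WT and 88.6 and 67.5 CPM in KO. Idi1, an isomerase before the farnesyl step, had 94.3 and 98.9 CPM in WT and 98.8 and 89.2 CPM in KO, and Fdft1, the squalene synthase, 54.9 and 44.1 CPM in WT and 54.9 and 49.0 CPM in KO. Mvk, the mevalonate kinase, stood at 29.2 to 35.8 CPM over the 4 libraries and Srebf1 at 6.70 to 8.62 CPM. Log2 changes of these 6 genes lay between -0.05 and 0.14.

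In the other 12 classes no member was called either. Of all genes, 0.0% were called in megakaryocyte-like and neural-like, 0.104% in erythroid-like, 0.0326% in hemogenic-like, 0.00823% in mesenchymal-like and 0.143% in primordial germ cell-like cells. Among the subclasses it was 0.027% in arterial-like, 0.0249% in endocardial-like, 0.0333% in neural capillary-like, 0.0658% in sinusoidal or lymphatic-like, 0.0395% in sprouting-like and 0.0545% in venous-like cells. The filter on low counts left 14 members in erythroid-like, 20 in neural-like, 23 in endocardial-like, 24 in megakaryocyte-like, 26 in hemogenic-like and 27 each in mesenchymal-like and primordial germ cell-like cells, and all 28 in the remaining subclasses. Unadjusted p under 0.05 occurred for Idi1 in erythroid-like cells (log2 0.63), Hsd17b7 in megakaryocyte-like cells (2.18), Mvd in neural-like cells (1.01) and Mvd and Tm7sf2 in arterial-like cells (0.50 and 0.79), all with adjusted p of 0.959 or above. In arterial-like cells Mvd was at 31.6 and 22.9 CPM in WT and 41.5 and 33.2 CPM in KO. For Hmgcs1 the widest interval was in erythroid-like cells (-1.52 to 0.82) and for Msmo1 in megakaryocyte-like cells (-0.37 to 1.52). A fit of genotype by class found no member whose KO difference in a broad class differed from that in endothelial-like cells, where 0.0237% of all genes were called in erythroid-like, megakaryocyte-like and primordial germ cell-like, 0.0158% in mesenchymal-like, 0.0395% in neural-like and 0.0% in hemogenic-like cells.

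Levels also differed by replicate number, in genes at large as well as in the members. The summed synthesis level was higher in replicate 1 than in replicate 2 of both genotypes in 11 of the 13 classes, the exceptions being megakaryocyte-like and neural-like cells. The 13 classes are not independent, since endothelial-like cells pool the 6 subclasses and all classes come from the same 4 libraries. In endothelial-like cells 12 of the 18 enzymes, and 14 of the 28 members, had replicate 1 above replicate 2 in both genotypes, as did 35.6% of 14796 genes. The opposite order in both genotypes held for 4 members and 32.0% of the genes. Within a number, the endothelial-like sum was 1091 CPM in WT and 1187 CPM in KO for replicate 1, and 987 CPM in WT and 1009 CPM in KO for replicate 2. KO was above WT within both numbers for 11 members (19.8% of all genes) and below for 2 (26.3%). The 10 genes of S phase ran in the same order in endothelial-like cells, with 1121 and 1185 CPM in the replicate 1 libraries and 952 and 967 CPM in the replicate 2 libraries. The share of mesenchymal-like cells was 14.996% and 12.8% against 3.36% and 4.31%. No label says what a number stands for, and the part of these differences in the levels was not tested.

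Of the uptake and other pathway genes of the second list, none of them members, 43 were tested between broad classes. Called in either direction were 20 in erythroid-like (39.1% of all genes), 7 in hemogenic-like (19.2%), 9 in megakaryocyte-like (30.6%), 10 in mesenchymal-like (27.3%), 15 in neural-like (35.1%) and 22 in primordial germ cell-like cells (45.4%). In endothelial-like cells 48 of the 50 were tested for KO against WT and none was called (0.13% of all genes). The described target Scarb1 was at 45.2 and 35.2 CPM in WT and 35.8 and 37.8 CPM in KO (log2 -0.11 ± 0.16), and Sp3 at 33.9 and 37.6 CPM in WT and 34.7 CPM in both KO libraries (log2 -0.03 ± 0.14). Between broad classes, Scarb1 was lower than in endothelial-like cells in mesenchymal-like (log2 -2.07), neural-like (-3.02), hemogenic-like (-1.13) and erythroid-like cells (-1.30). Lrp1, an endocytic receptor for apolipoprotein E, was at 31.9 to 46.5 CPM in mesenchymal-like cells and at 0.141 to 0.308 CPM in endothelial-like cells. Lipa, the lysosomal lipase that frees cholesterol from lipoproteins, was at 1.12 to 2.46 CPM in primordial germ cell-like cells, the class with high Npc1, against 38.2 to 42.0 CPM in endothelial-like cells (log2 -4.39).

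Between endothelial subclasses, Lipa was called higher in arterial-like cells (116.0, 125.9, 130.1 and 123.6 CPM; log2 1.30), where Npc1 was also higher, and lower in venous-like cells (17.0 to 19.5 CPM; log2 -1.76). Apoe, the apolipoprotein, was at 1008 to 1142 CPM in sinusoidal or lymphatic-like cells, the subclass with the least Abca1 (log2 2.96), and at 40.03 to 54.0 CPM in neural capillary-like cells, the subclass with the most (log2 -2.62). The apolipoprotein E receptor Lrp8 was at 41.2, 47.6, 27.2 and 46.3 CPM in neural capillary-like cells and at most 9.88 CPM in any library of the other subclasses (log2 3.79). Mylip, which marks lipoprotein receptors for degradation, was higher in arterial-like cells (29.8 to 40.7 CPM; log2 2.17).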

How the data were processed

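The deposited matrices hold unnormalized UMI counts for each gene in each barcode, written by Cell Ranger 3.1.0, per the file headers; Seurat 4 is named in the submitters' processing notes without a role. For genome build, annotation and counting strand: not given in the sources used here. Of the members, 7 overlap a gene on the other strand and 2 a gene on the same strand in GENCODE M21, which matched 30934 of the 31053 gene identifiers.

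Of 31521 barcodes, those with 1000 or more genes detected and less than 10% of UMIs from mitochondrial genes were kept. Doublets, scored against simulated ones, were removed at 0.8% per 1000 barcodes, which took 3.65% to 10.0% of each library. From 2000 variable genes, scaled within library and excluding pathway genes, 40 principal components, 20 neighbours and Leiden clustering at resolution 1 gave 22 clusters. Clusters were named from marker lists at a mean log2 fold of at least 0.5, or 0.3 within the endothelium; these limits were set after seeing the clusters. Unnamed clusters hold 4.49% to 6.86% of the cells of a library.

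UMI counts were summed per class and library where every library had at least 10 cells. They were tested with edgeR 4.0.16 in R 4.3.3 (filterByExpr, TMM scaling, robust quasi-likelihood fit, Benjamini-Hochberg adjustment over all genes tested). The fits were tested on simulated counts with known changes. CPM is relative to all UMIs of the class. Genotype was the only term for KO against WT; library was a block between classes. Alternatives were DESeq2 1.42.0, its size factors, no filter on low counts, doublets kept, a stricter cell filter (2000 genes, 5% mitochondrial UMIs), no library block, the replicate number as a block, a log2 limit of 0.5 and leaving out each library. Intervals are at 95%.

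The members and lists were chosen with earlier results of these data known. Library values are given for the 6 members with the smallest unadjusted p in endothelial-like cells, for Hmgcs1, Msmo1, Abca1 and Srebf2, and per class for up to 4 called members in each direction with the largest difference. Of the second list, up to 4 genes called per direction and comparison by smallest adjusted p were eligible, with Scarb1 and Sp3 in any case; some items of that list are not reported here. Other members are named to account for all 28.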

Additional observations from a re-analysis of the deposited data

How the results depend on the processing

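No member was called for KO against WT, under any setting run, nor for a difference of the KO effect between classes with another scaling, no low-count filter, doublets kept or a library left out; leaving out a library left the count at 0 and moved the median change of the members in endothelial-like cells between 0.0064 (without KO replicate 1) and 0.106 (without KO replicate 2). Over all genes of that class 19 were called, against 82 without the low-count filter, 42 with DESeq2, 48 with the replicate number as a block, 10 with doublets kept, 5 with the stricter cell filter and 18 to 98 without a library. With that block members called stayed at 0 and their median change was 0.07; deviations of WT replicate 1 and KO replicate 1 correlated at r = 0.33 over 14657 genes, but with 2 pairs the samples share only a number, and the block changed no call of a member. Between 4 and 9 of the 28 members turned direction when a library was left out (8 without WT replicate 1, 7 without WT replicate 2, 9 without KO replicate 1), 6 with the stricter cell filter and 1 each with the replicate block and doublets kept, none of them called. Among the genes chosen by the naming rule, those that turned were Sp3 (0.045 with the stricter cell filter; -0.11 to 0.056 over the fits without a library), Srebf2 (-0.14 to 0.0016, WT replicate 1 left out at the upper end), Scarb1 (-0.27 to 0.070, likewise), Dhcr7 (-0.026 to 0.42, WT replicate 2 left out at the lower end) and Msmo1 (-0.010 to 0.23, KO replicate 1 left out at the lower end). Calls higher between broad classes numbered 5, but 2 without the low-count filter, where calls lower rose from 42 to 54. A log2 limit of 0.5 gave 19 higher and 70 lower between broad classes, and 14 higher and 22 lower between endothelial subclasses. The share of all genes called was not counted under the alternative settings, so these member counts cannot be set against a background. The 6 calls higher between subclasses became 2 with the stricter cell filter, which left too few cells of arterial-like, endocardial-like, hemogenic-like and neural-like cells to be fitted. Without a library, broad calls were 5 higher and 40 to 45 lower, and subclass calls 5 to 6 higher and 3 to 4 lower. Of the 47 calls between broad classes 12 were lost under at least 1 setting that kept the limit of 1: Lss, Hsd17b7 and Tm7sf2 in neural-like, Ebp in mesenchymal-like, Insig1 and Mvd in hemogenic-like, Fdft1 and Hmgcs1 in megakaryocyte-like, Mvk in primordial germ cell-like and Insig1, Stard4 and Tm7sf2 in erythroid-like cells. Of the 9 between subclasses 3 were lost: Abcg1 with the stricter cell filter (0.97 in neural capillary-like and 0.82 in sprouting-like cells) and Abca1 in sprouting-like cells (0.89 to 0.99). The 2 Abcg1 values were set against a changed mean of the other subclasses. It lacked arterial-like and endocardial-like cells, whose Abcg1 differences in the main fit were -0.91 and -1.26. The cause was not tested. Precision is limited where a value rests on few UMIs, as for Abca1, Soat1, Mvd and Tm7sf2 in erythroid-like cells.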

Other observations

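Unnamed clusters entered no comparison. Cluster 9, of low depth with a median of 7295 UMIs per cell, had a summed level of the 18 synthesis enzymes of 1024 and 896 CPM in WT replicates 1 and 2 and 1165 and 905 CPM in KO replicates 1 and 2, with Abca1 at 12.1, 19.8, 4.54 and 9.20 CPM. Cluster 15, which carried Afp and Alb, genes of the early liver, beside the neural genes Fabp7, Hes5 and Pax3, had synthesis sums of 1257, 1235, 1323 and 1246 CPM in the same order.

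Within neural capillary-like cells, Abca1 was at 117, 135, 67.1 and 107 CPM in cluster 7, led by Spock2 and Stra6, and at 64.5, 70.5, 50.6 and 61.9 CPM in cluster 3, led by Gxylt2 and Car2. The genes of G2 and mitosis summed to 258 to 471 CPM in cluster 7 and to 2374 to 2728 CPM in cluster 3. Abcg1 was likewise at 56.0 to 63.0 CPM in cluster 7 and at 34.0 to 38.7 CPM in cluster 3. These clusters were singled out after their values were seen, and no test was made.

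Ch25h, which makes an oxysterol that represses cholesterol synthesis, had the smallest unadjusted p of the second list for KO against WT in endothelial-like cells (0.039, log2 -0.98 ± 0.40), with an adjusted p of 0.999973 by edgeR. It was chosen after its values were seen.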
